A study of Mus musculus with 8 samples.

Results

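A cluster of 5 genes on mouse chromosome 1, which belong to the SP100 family or lie among its copies, was followed across 8 RNA-seq libraries of splenic CD4+ T cells: Sp100, Sp110, Sp140, C130026I21Rik and the non-coding gene A530040E14Rik. They are the 5 of 52636 table rows that carry these names, and they were chosen by name as interferon-inducible neighbours, with their levels in these libraries and the difference between CD70 transgenic and control mice already known. All 5 were among the 12816 genes tested. The libraries came from regulatory T cells (Tregs, CD4+ Foxp3+) and conventional T cells (Tconvs, CD4+ Foxp3-) of mice aged 6 to 8 weeks, with 200000 sorted cells per library and 2 libraries in each of 4 groups. The CD70Tg groups carried CD11c-Cd70tg, which places the costimulatory ligand CD70 under the CD11c promoter, active mainly in dendritic cells. They had a single functional copy of Cd27, the receptor gene of CD70 (CD27+/-). The control mice were CD27+/- without the transgene, so that reduced Cd27 dosage was shared by all groups. The protocol names a Foxp3 reporter beside the CD70Tg mice. It describes the sorting of Tregs and Tconvs as GFP+ and GFP- without setting the control mice apart. The reporter is therefore not taken as a difference between the groups. The control columns are headed KO and the control samples are described as WT, and CD27+/- is the genotype given in the protocol. Nothing states whether cells of several mice were pooled or whether the 2 libraries of a group came from separate mice, so the p-values below measure only the spread between libraries, which may be technical.

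SP100 family proteins are nuclear readers of chromatin that share an N-terminal self-association domain and a DNA-binding SAND domain, and several carry a PHD finger and a bromodomain. SP100 is a core constituent of PML nuclear bodies, structures that silence incoming viral DNA, and its gene is a classical target of interferons. SP110 and SP140 are enriched in leukocytes. Mouse Sp110 lies in a region that governs susceptibility to tuberculosis, and Sp140 restrains type I interferon production in macrophages. In the mouse these genes sit beside a large array of duplicated, partly pseudogenic copies.

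In the GENCODE M21 annotation of GRCm38 (mm10), the 5 genes spanned 717 kb, chr1:84992690-85709998. From the centromere side, C130026I21Rik (protein coding, minus strand, chr1:84992690-85270566) came first, and A530040E14Rik (antisense non-coding RNA, plus strand, chr1:85105946-85114035) was annotated inside it. Sp110 (minus strand, chr1:85576899-85598817), Sp140 (plus strand, chr1:85600378-85645037) and Sp100 (plus strand, chr1:85649988-85709998) followed in a tight cluster, in which Sp110 and Sp140 are transcribed away from each other. RefSeq gives C130026I21Rik a much shorter interval in this region. Of the 25 other annotated genes in the span, 14 were pseudogenes.

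The starts of C130026I21Rik and Sp140 carry nearly the same sequence. Their RefSeq promoter windows (GRCm38.p6, 250 bases before and 50 after the annotated start) aligned over 255 columns with 254 identical bases and no gap. The stretch just upstream of C130026I21Rik is shown because it is common to the promoter windows of a pair of members whose levels differed between CD70Tg and control libraries. Of the aligned columns, only those before the start of C130026I21Rik are printed. It covers positions -205 to -1 from the start, chr1:85270567-85270771 on the minus strand, and the capital letter marks the only base that differs in Sp140 (A109G, counted from 1 at the 5′ end of the stretch, C130026I21Rik base first).
C130026I21Rik upstream stretch: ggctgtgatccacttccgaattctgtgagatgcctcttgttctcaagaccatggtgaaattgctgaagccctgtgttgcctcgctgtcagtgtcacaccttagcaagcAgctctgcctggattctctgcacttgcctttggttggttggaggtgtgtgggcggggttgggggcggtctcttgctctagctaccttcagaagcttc
The Sp140 counterpart lies at chr1:85600460-85600664 on the plus strand. It is upstream of the RefSeq start used here but inside the GENCODE gene, where 140 of its 205 bases are exon. All 181 of the 25-base words of the stretch also stood in the promoter window of A530032D15Rik, a further family copy within the span, against 156 of 181 (86.2%) in that of Sp140. No other promoter window held any of them. The promoter window of A530040E14Rik aligned to none of the others over more than 18 columns.

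Sp100 and Sp110 shared a much shorter stretch near their starts. It is shown because it holds a pair of TTTC repeats like those of interferon-stimulated response elements, here 3 bases apart, and the capitals mark the letters TTTCNNNTTTC.
Sp100, chr1:85649932-85649956, plus strand: gagaattacTTTCGTTTTTCttttc
Sp110, second annotated promoter, chr1:85598786-85598809, minus strand: gagatcacTTTCATTTTTCttttc
These aligned over 25 columns with 22 identical bases, and lay at positions -56 to -32 of Sp100 and 2 to 25 of Sp110. The spacing was chosen after the promoters had been read, and 2.75% of 32851 RefSeq promoter windows held TTTCNNNTTTC on either strand. The interferon-stimulated response core TTTCNNTTTC (3.44% of windows) and the gamma-activated site TTCNNNGAA (8.3% of windows) occurred in none of the 7 promoter windows of the members, which says only that these letters are not in those 300 bases. There was thus no overlap between the patterns. Both windows of Sp100 held the same TTTCNNNTTTC site, since they have 274 bases in common. Of the windows of Sp110 the second held these letters.

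Close copies limit how reads can be assigned here. Every 50-base word of the annotated transcripts of a member was looked up in the transcripts of all other genes on both strands. Sp100 had 5.92% of its words in another gene, Sp110 42.3%, Sp140 57.3%, C130026I21Rik 32.9% and A530040E14Rik 38.1%. With words of 100 bases the shares were 1.74%, 21.9%, 35.6%, 16.5% and 20.7% in the same order. Sp100 had the smallest share of such words. The shares include words from exons that overlap another gene at the same place, such as the 20.6% that Sp140 has in common with its antisense gene Gm17017 and the 4.96% of Sp110 in G530012D18Rik, and how far the counts depend on them was not measured.

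**Figure D1:**
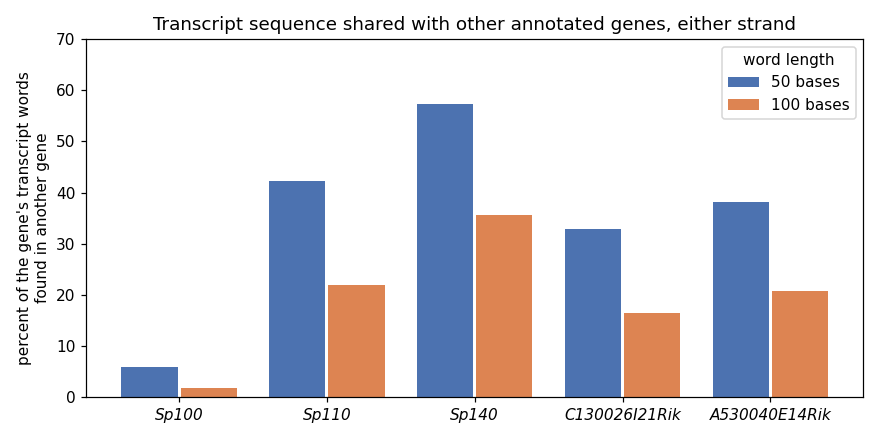
Percentage of the distinct words of each gene's annotated transcripts (vertical axis) that also occur in another annotated gene on either strand, for words of 50 and 100 bases. Sp100 has the lowest bars (5.92% and 1.74%) and Sp140 the highest (57.3% and 35.6%).

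The partners of this sharing differed by gene. For Sp110 the pseudogene Gm16026 held 26.7% of the words. For Sp140 the largest partners after Gm17017 were the chromosome 9 gene Arhgef12 on the opposite strand (19.2%), the pseudogenes Gm5831 and Gm2427 (15.1% each), A530032D15Rik (13.3%) and C130026I21Rik (12.7%). C130026I21Rik in turn shared 12% of its words with Sp140 and 9.49% with A530032D15Rik, and A530040E14Rik shared 19.7% with Gm10552, a non-coding gene antisense to the Sp140 locus. Exons overlapped on opposite strands as well: 877 exon bases of Sp140 (26.4%) lay in Gm17017, and 343 exon bases were common to C130026I21Rik (8.96%) and A530040E14Rik (14.8%). Whether reads were counted by strand, and how reads that map to several places were treated, is not given in the sources used here. The values of Sp110, Sp140, C130026I21Rik and A530040E14Rik are uncertain to that extent.

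The deposited values are read counts scaled to about 20 M per library, so depth had to be estimated from the spacing of the low values. This gave 6.94 and 33.31 M counted reads for the CD70Tg Tconv libraries, 9.56 and 19.52 M for the control Tconvs, 4.12 and 4.57 M for the control Tregs, and 1.91 and 3.68 M for the CD70Tg Tregs. The spacing is less certain in the deepest library of each Tconv group. A count of 3 reads was worth 1.8 to 31.4 in these units. The summed level of the Treg markers Foxp3, Ikzf2 and Il2ra was 46141 to 53051 in Tregs and 2202 to 2850 in Tconvs, and Cd3e, Cd3g and Cd4 were abundant in all libraries. Cd70 itself read 4 and 3 in control and 15 and 28 in CD70Tg Tconvs, and 0 and 9 in control and 11 and 44 in CD70Tg Tregs, so the CD70Tg libraries lay above the control libraries at values of few reads. Cd27 read 2980 to 6123. The 2 CD70Tg Tconv libraries lay further apart than those of the other groups, with a median difference of 16.3% over tested genes against 10.5% to 12.6%, and 73.9% of genes were higher in the second of them in table order. The control Tconv pair was one-sided as well, with 31.2% of genes higher in its second library, against 50.8% and 48.9% in the Treg groups.

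Sp100, the PML body constituent, was the most abundant member. It read 14558 and 14801 in control Tconvs, 14276 and 13564 in CD70Tg Tconvs, 12112 and 12321 in control Tregs, and 10658 and 11538 in CD70Tg Tregs (values per 20 M, libraries in table order). The groups did not overlap, and the order ran from control Tconvs through CD70Tg Tconvs and control Tregs down to CD70Tg Tregs. Sp110, a component of the same bodies, stayed in a narrow band: 3831 and 3512 in control Tconvs, 3830 and 4131 in CD70Tg Tconvs, 3683 and 3740 in control Tregs, and 3657 and 3823 in CD70Tg Tregs. No group of Sp110 libraries stood clear of all the others, and no order of groups can be read from it.

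Sp140, the leukocyte bromodomain protein, showed a split by transgene. It read 894 and 814 in control Tconvs, 1415 and 2209 in CD70Tg Tconvs, 1000 and 1126 in control Tregs, and 1672 and 1768 in CD70Tg Tregs. All 4 CD70Tg libraries lay above all 4 control libraries, and the CD70Tg Tregs fell between the 2 CD70Tg Tconv libraries.

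C130026I21Rik, the family copy that shares the printed stretch with Sp140, was expressed far lower, at 70 and 84 in control Tconvs, 168 and 281 in CD70Tg Tconvs, 78 and 75 in control Tregs, and 230 and 245 in CD70Tg Tregs. The antisense RNA A530040E14Rik read 79 and 113 in control Tconvs, 294 and 510 in CD70Tg Tconvs, 107 and 101 in control Tregs, and 335 and 463 in CD70Tg Tregs. In both genes the control Tregs and control Tconvs overlapped, the CD70Tg Tregs and CD70Tg Tconvs overlapped, and the 4 CD70Tg libraries lay above the 4 control libraries. These levels rest on few reads in Tregs. The 78 of C130026I21Rik in the first control Treg library corresponds to about 16 reads, with an exact 95% Poisson interval of 44.4 to 126, and the 230 in the first CD70Tg Treg library to about 22 reads (144 to 348). Such intervals cover counting error only.

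**Figure D2:**
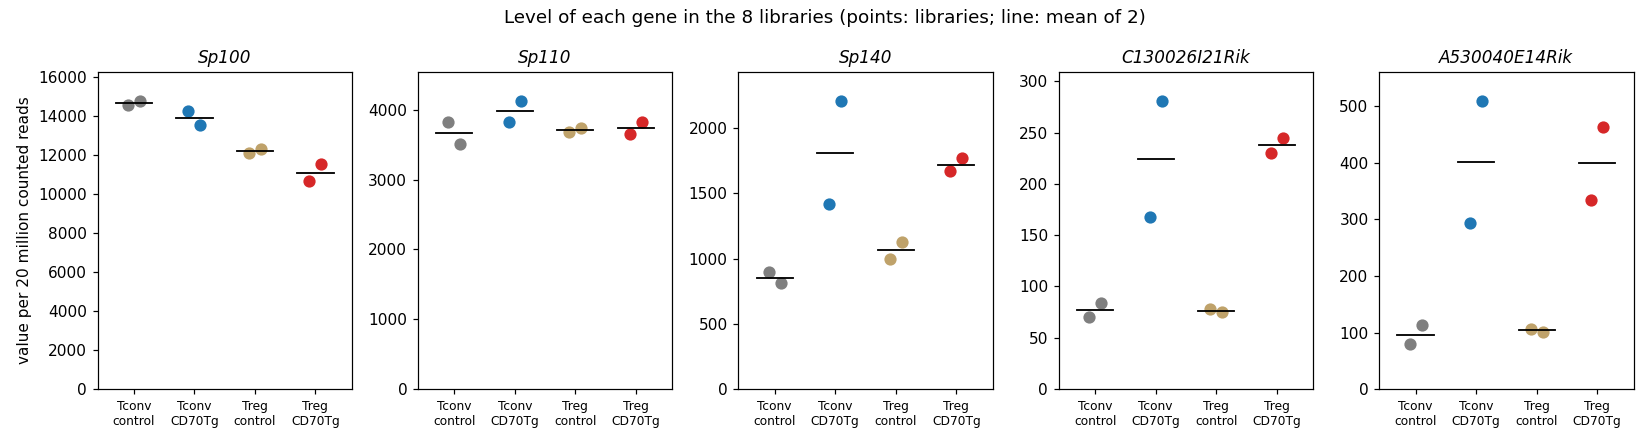
Value per 20 M counted reads (vertical axis, from 0, scaled separately for each gene) in the 8 libraries, with 1 point per library and a line at the mean of the 2 libraries of a group. Sp140, C130026I21Rik and A530040E14Rik lie higher in all 4 CD70Tg libraries than in all 4 control libraries, Sp110 keeps the same level, and Sp100 is lowest in the CD70Tg Tregs.

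Levels were compared between genes only after division by annotated exon length. The members differ in the share of their words found in other genes, and division by length does not correct for that. Per kb of exon, Sp100 averaged 1940 in control Tconvs and 1470 in CD70Tg Tregs, at the ends of its range. Sp110 averaged 541 to 587 in the 4 groups. Sp140 averaged 257 in control Tconvs and 319 in control Tregs, against 544 and 517 in the CD70Tg Tconvs and Tregs, so that it stood below Sp110 in control cells but next to it in CD70Tg cells. In CD70Tg Tconvs the libraries of Sp140 (425 and 664 per kb) and Sp110 (565 and 609 per kb) overlapped. A530040E14Rik averaged 41.3 and 44.8 per kb in the control groups and 172 and 173 in the CD70Tg groups, above C130026I21Rik in each group (20.1 in control and 58.7 in CD70Tg Tconvs, 62.1 in CD70Tg Tregs).

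The first comparison of the design asks what continuous CD70 exposure does to each T cell subset. Because the members were chosen with this contrast known, their differences are given without a test. On the log2(value + 5) scale, which understates changes of low genes, A530040E14Rik was higher in CD70Tg than in control cells by 1.87 ± 0.30 (model SE) in Tregs and 1.98 ± 0.30 in Tconvs, a 3.66-fold and a 3.94-fold difference. C130026I21Rik was higher by 1.57 ± 0.30 in Tregs and 1.44 ± 0.30 in Tconvs. Sp140 was higher by 0.69 ± 0.17 in Tregs and 1.05 ± 0.17 in Tconvs. Sp100 and Sp110 showed no such step. Sp100 differed by -0.14 ± 0.11 in Tregs and -0.08 ± 0.11 in Tconvs, differences near the size of their SE, and Sp110 by 0.01 and 0.12.

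By the threshold used for all genes (adjusted p under 0.05 and a log2 difference over 1), 2 of the 5 members were called higher in Tregs, where 2.53% of tested genes were, and 3 of 5 in Tconvs, where 4.07% were. Neither count can be read as a result, since the choice of members used this contrast. The libraries did not overlap in the higher direction for 3 members in Tregs (22.5% of tested genes) and for the same 3, Sp140, C130026I21Rik and A530040E14Rik, in Tconvs (23.7%). Part of the Tconv differences came from the second CD70Tg library. Without it only A530040E14Rik passed the threshold in Tconvs, and the differences of Sp140 and C130026I21Rik were 0.73 and 1.08. In Tregs 0 members were called when limma-voom was fitted to estimated reads, and 1 when no minimum value was required, as was 1 in Tconvs. In bulk samples a change in the share of cells that express a gene and a change in RNA per cell cannot be told apart.

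Marker genes of other cell types also differed between these groups. The 2 CD8 T cell markers summed to 681 to 720 in control and 1563 to 1590 in CD70Tg Tconvs, and to 317 to 417 and 631 to 660 in Tregs. Cd8a was called higher in both subsets and 1 of the 2 markers was called in each. The 6 dendritic cell markers summed to 72 to 138 and 195 to 345 in Tconvs and 99 to 156 and 378 to 410 in Tregs, with 1 of 2 tested markers called higher in each subset and Siglech at 0 in both control Tregs. The 3 NK cell markers, of which the 1 tested was called lower in both subsets, went from 405 to 423 down to 71 to 75 in Tconvs and from 36 to 64 down to 0 to 11 in Tregs. Ncr1, which defines NK cells, was at 0 in both control Tconvs and in all Tregs. The 6 macrophage markers summed to 1327 to 1386 and 838 to 1147 in Tconvs and 2570 to 2648 and 2244 to 2520 in Tregs, and the 6 B cell markers to 160 to 184 and 70 to 92 in Tconvs and 254 to 384 and 432 to 494 in Tregs, with 0 called by limma in either list and 1 macrophage marker lower in Tregs at an adjusted p under 0.05. Whether this marker RNA came from other cells or from the sorted T cells themselves was not tested. Any part of other cells in the values of the members was not tested either.

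The second comparison asks how Tregs and Tconvs differ. It is another contrast than that between CD70Tg and control mice, but the members were chosen with values of the same libraries known, so the p-values and counts given for them are not independent of that choice. No member was called between the subsets. In control mice 0 of 5 passed the limma threshold, where 19.2% of tested genes did. There 0 of 5 passed an adjusted p under 0.05 alone (45.8% of genes) and 1 of 5 an unadjusted p under 0.05 (52.9%). In CD70Tg mice 0 of 5 passed the threshold (17.2% of genes), 1 of 5 an adjusted p under 0.05 (42.7%) and 1 of 5 an unadjusted p under 0.05 (50.5%). limma-voom on estimated reads also called 0 in both. Each of these counts lay below the share over all tested genes, a difference that was not tested over 5 genes.

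Sp100 was the member that passed an adjusted p under 0.05 between subsets, in CD70Tg mice. It was lower in Tregs than in Tconvs by 0.33 on the log2 scale in CD70Tg mice (log2 difference -0.33, 95% interval -0.57 to -0.09, limma adjusted p = 0.028), which is short of the fold threshold. In control mice the difference was -0.26 with an adjusted p of 0.065, and over the alternatives it ran from -0.34 to -0.04, the smallest with quantile normalization, with an adjusted p from 0.024 to 0.77. Over the alternatives run, the difference in CD70Tg mice ranged from -0.38 to -0.26 and its adjusted p from 0.015 to 0.2. Sp140 was 0.31 higher in control Tregs than in control Tconvs (95% interval -0.05 to 0.67, adjusted p = 0.15) and differed by -0.04 in CD70Tg mice (-0.40 to 0.32, adjusted p = 0.87). For C130026I21Rik the intervals ran from -0.64 to 0.63 in control and from -0.51 to 0.76 in CD70Tg mice, and for A530040E14Rik from -0.50 to 0.76 and from -0.60 to 0.65. Differences within these bounds were not detectable in these low genes. The libraries of the subsets did not overlap for 2 of 5 members in control mice (Sp140 and Sp100, against 76.2% of tested genes) and for 2 of 5 in CD70Tg mice (Sp100 and, narrowly, Sp110, against 69.2%).

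The third comparison asks whether the transgene acts differently on the subsets, taken as the difference of the 2 responses. It is built from the CD70Tg and control values known when the members were chosen, so the counts are a description from which nothing is read: 0 of 5 had an adjusted p under 0.05, where 1.02% of tested genes did, and 0 of 5 had an unadjusted p under 0.05, where 10.7% did. limma-voom gave 0 as well. The Treg response of Sp140 was 0.35 smaller than its Tconv response (difference -0.35, 95% interval -0.86 to 0.16), and the difference was -0.67 without the first and -0.03 without the second CD70Tg Tconv library. The differences were 0.13 for C130026I21Rik (95% interval -0.77 to 1.03) and -0.11 for A530040E14Rik (-0.99 to 0.78). Both intervals are wide, so equal responses are not shown. The 3 comparisons share libraries and are not independent of each other.

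The genes around the members were tested in the same model. Within 500 kb of the span on either side, 54 other annotated genes were in the table and 17 were tested, 8 of them inside the span. Between CD70Tg and control Tregs, 2 of the 8 inside genes were called higher and 0 lower, both of them pseudogenes that share sequence with Sp100, and 0 of the 9 outside genes were called by limma or limma-voom (1, Cab39, at an unadjusted p under 0.05). Both entered the test through the group in which they were called: Gm7592 reached the minimum of 60 in the CD70Tg Tregs alone, and Gm7609 there and in 1 CD70Tg Tconv library, so these calls are not support for a difference of the neighbours. Gm7609 read 39 and 27 in control and 126 and 109 in CD70Tg Tregs (log2 difference 1.70 ± 0.41, adjusted p = 0.019). Gm7592 read 39 and 27 in control and 136 and 93 in CD70Tg Tregs (1.65 ± 0.40, adjusted p = 0.019). The control values are 8 and 6 reads for either gene, and each call was lost when any of 3 libraries, both control Treg libraries and the first CD70Tg Treg library, was left out. Without the second CD70Tg Treg library the call of Gm7609 was lost as well, and with estimated reads or with no minimum value both were lost, while the differences kept their direction at 1.33 to 1.93. In Tconvs 0 of the 8 inside genes were called by limma, with 2, Gm10552 and Gm17017, at an unadjusted p under 0.05 and called by limma-voom. There Gm7609 and Gm7592 differed by 0.45 and 0.60 without being called, and the difference of the responses did not pass for either (adjusted p = 0.46 and 0.55). Gm7609 and Gm7592 hold 2.59% and 2.38% of the words of Sp100, which itself was not higher in CD70Tg Tregs.

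The antisense genes that overlap or face Sp140 resembled it in sign. Gm17017 was higher in CD70Tg Tconvs by 0.98 ± 0.25 (adjusted p = 0.017, below the fold threshold) and differed by 0.57 in Tregs (adjusted p = 0.18). Gm10552 differed by 1.12 and 0.65 in Tconvs and Tregs, with adjusted p of 0.056 and 0.29. G530012D18Rik, which shares 392 exon bases with Sp110 on the other strand, differed by 0.07 in Tregs and -0.06 in Tconvs. With strand handling unknown, reads of Gm17017 and Sp140 cannot be told apart over their common 877 bases.

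The copy whose promoter window holds the same stretch, A530032D15Rik, was low in all 8 libraries. It read 5 and 13 in control Tconvs, 3 and 19 in CD70Tg Tconvs, 25 and 5 in control Tregs and 11 and 11 in CD70Tg Tregs, and it failed the filter on low values. It was singled out for its sequence after these values had been seen. Of the 9 tested genes outside the span, Gpr55, a receptor for lysophospholipids, was called higher in CD70Tg Tconvs (1.12 ± 0.26, adjusted p = 0.0087). That call was lost with no minimum value, with quantile normalization (0.93) and without the second CD70Tg Tconv library (0.67). Gpr55 was also higher in Tregs than in Tconvs by 2.85 in control and 2.18 in CD70Tg mice, and Trip12, an E3 ubiquitin ligase on the other flank, differed by 0.02 and 0.17 between CD70Tg and control Tregs and Tconvs. Between subsets, 3 of the 9 outside genes were called higher in control Tregs and 2 in CD70Tg Tregs. Of all tested genes, 19.2% and 17.2% were called in either direction. Inside the span 0 of 8 were called in control mice. In CD70Tg Tregs 4 were called higher: Rpl19-ps1 (1.94), Gm27907 (1.94), Gm7592 (1.37) and Gm7609 (1.17). Gm27907 lies within Rpl19-ps1 and, like Gm7592, reached the minimum of 60 in the CD70Tg Tregs alone.

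**Figure D3:**
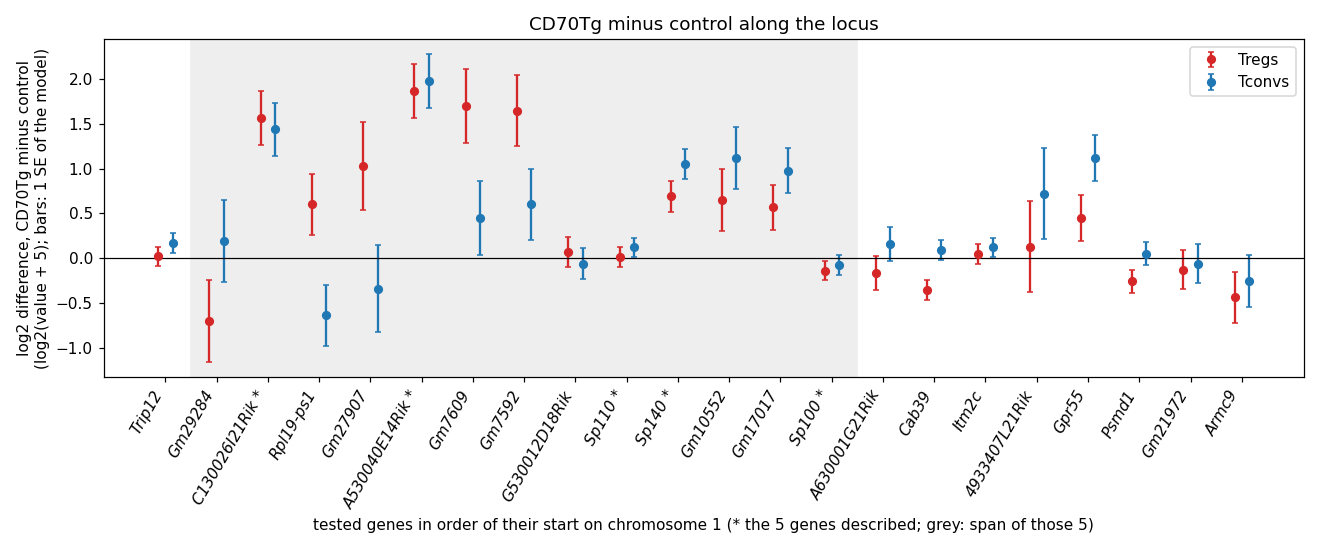
Log2 difference between CD70Tg and control libraries (vertical axis, log2(value + 5), bars of 1 model SE) for the 22 tested genes of the locus in order of position, in Tregs and Tconvs. Members are starred and their span is grey. C130026I21Rik and A530040E14Rik are high in both subsets, Sp140 (0.69 and 1.05) stands between Sp110 and Sp100, which are near 0, and Gm7609 and Gm7592 are high in Tregs.

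The genes that carry the interferon signal were examined beside the locus, since its members are interferon targets. These signal genes were chosen with earlier results of these data known, so the p-values given for them are a description. The ligand Ifng read 105 and 72 in control and 718 and 2111 in CD70Tg Tconvs, and 64 and 71 in control and 168 and 300 in CD70Tg Tregs. In Tconvs it rose by 3.75 ± 0.40 on the log2 scale (adjusted p = 6.9e-06). The rise in Tregs was 1.67 ± 0.40 (adjusted p = 0.016), a call that was lost with estimated reads, with no minimum value, without either control Treg library or without the second CD70Tg Treg library. Ifnb1, Ifna4, Ifnl2 and Ifnl3 were at 0 in all 8 libraries.

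Among receptors, Ifngr1, the ligand-binding chain for interferon-gamma, rose in both subsets, from 7585 and 8245 to 15913 and 18492 in Tregs (1.12 ± 0.12, limma adjusted p = 4.3e-05), and from 3455 and 3275 to 6391 and 7528 in Tconvs (1.04 ± 0.12, adjusted p = 2.1e-05). It was the 1 of 4 tested receptor genes called higher in each subset, in Tconvs only with the second CD70Tg library (0.92 without it). Ifngr2, the other chain of the same receptor, fell by 0.59 ± 0.15 on the log2 scale in CD70Tg Tconvs (1159 and 1164 in control, 776 and 764 in CD70Tg, adjusted p = 0.016, below the fold threshold). In Tregs it differed by -0.23 (1005 and 806 in control, 763 and 767 in CD70Tg, adjusted p = 0.39). The type I interferon receptor chain Ifnar1 differed by 0.03 and 0.08. Among genes of signal transduction, Irf1, a transcription factor induced by interferon-gamma, was 0.83 higher in CD70Tg Tregs and 0.96 higher in CD70Tg Tconvs, with adjusted p of 0.0026 and 0.00038. The kinase Jak1 differed by -0.12 and 0.06, and Irf9, the DNA-binding subunit of the type I interferon response complex, by -0.10 and 0.11. Stat2 differed by 0.36 and 0.56, with adjusted p of 0.08 and 0.0054.

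Interferon targets elsewhere in the genome were counted in 2 lists. Both lists were chosen with earlier results of these data known. Their counts, medians and p-values are therefore a description and no test of an interferon response. Of 10 genes induced mainly by interferon-gamma, 3 were called higher in Tregs and 5 in Tconvs, and 8 and 9 passed an adjusted p under 0.05 in that direction, where 7.4% and 8.81% of tested genes passed in either direction. Gbp2, Igtp and Iigp1 were called in both subsets, and Gbp3 and Gbp5 in Tconvs. The median log2 difference of the list was 0.75 and 1.48, against -0.053 and 0.007 over all tested genes. Gbp2, a guanylate-binding protein, rose by 1.22 ± 0.14 in Tregs and by 1.99 ± 0.14 in Tconvs, with adjusted p of 5.9e-05 and 7.4e-08. Of 23 antiviral genes, 0 were called higher in Tregs by limma or limma-voom and 2, Mx1 and Oasl2, in Tconvs, with 3 and 7 at an adjusted p under 0.05 and medians of 0.23 and 0.40. Isg15, a ubiquitin-like antiviral protein, differed by -0.09 in Tregs and -0.03 in Tconvs, and Irf7, which amplifies type I interferon, by 0.36 and 0.38 (adjusted p = 0.19 and 0.17). The 2 Tconv calls of the antiviral list were 0 without the second CD70Tg Tconv library or without the second control Tconv library. Beside the medians of the interferon-gamma list, A530040E14Rik lay higher in both subsets, C130026I21Rik higher in Tregs and at nearly the same value in Tconvs, and Sp140 lower in both. Sp100 and Sp110 lay below the medians of both lists in both subsets.

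**Figure D4:**
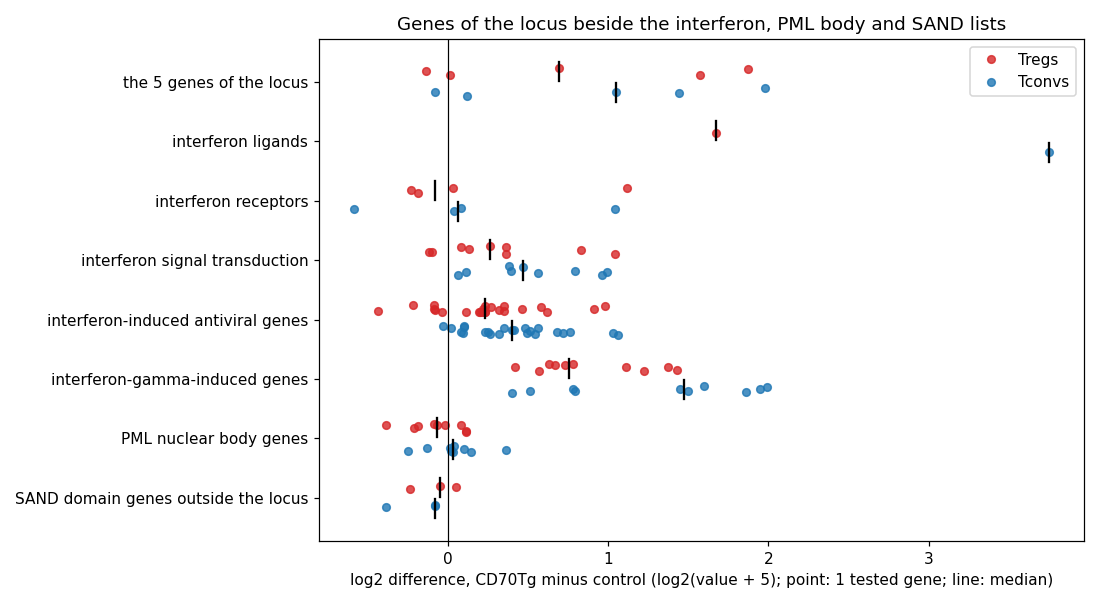
Log2 difference between CD70Tg and control libraries (horizontal axis, log2(value + 5)) for each tested gene of the locus and of 7 gene lists, with 1 point per gene, Tregs and Tconvs apart, and a line at the median. The interferon-gamma-induced genes have medians of 0.75 and 1.48, whereas PML nuclear body genes lie around 0.

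The partners of SP100 in PML nuclear bodies showed no called difference with the transgene. Their list, too, was chosen with earlier results of these data known. Of 9 PML body genes, 0 were called in either subset by limma, 0 passed an adjusted p under 0.05 and 1 in each subset an unadjusted p under 0.05, and limma-voom called 0 higher, with medians of -0.07 in Tregs and 0.03 in Tconvs. Pml, which builds the bodies and is itself an interferon target, differed by 0.11 ± 0.13 and 0.14 ± 0.13, and Daxx, a histone chaperone housed there, by -0.19 and 0.02. Among SAND domain genes outside the locus, 3 of 4 were tested and 0 were called by limma, with Deaf1 in Tconvs at an unadjusted p under 0.05. Deaf1, a transcription factor, differed by -0.24 in Tregs and -0.39 in Tconvs (adjusted p = 0.44 and 0.18), and Aire, which drives self-antigen expression in the thymus, failed the filter on low values.

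The pattern of each member over the 8 libraries was compared with that of all tested genes by the root mean square difference of mean-centred log2 values, which involves no test. The nearest profiles to C130026I21Rik were those of Lysmd2 (0.187), Cxcr3 (0.213), the chemokine receptor of type 1 T cells, and Plod2 (0.219), and A530040E14Rik ranked 6 among all genes at 0.244. For A530040E14Rik no gene came closer than C130026I21Rik, followed by Plod2 (0.267), Rap1gap2 (0.29) and Lrrk1 (0.291). Cxcr3 read 2385 and 1821 in control and 4146 and 5978 in CD70Tg Tconvs, and 2310 and 2137 in control and 6729 and 7112 in CD70Tg Tregs. Sp140 was nearest to Rab19 (0.0605), Cdc20 (0.0947), an activator of the anaphase-promoting complex, and Tlr6 (0.114), while C130026I21Rik ranked 601. Rab19, a small GTPase, read 587 and 519 in control and 865 and 1303 in CD70Tg Tconvs, and 607 and 697 in control and 1045 and 1006 in CD70Tg Tregs. Sp100 and Sp110, whose values ranged over only 0.47 and 0.23 on the log2 scale, were nearest to Hnrnpa3, Echdc1 and Rnf146 (0.0387 to 0.0489) and to Lcp2, Rtn3 and Cyb561a3 (0.0392 to 0.0412). These profiles share libraries and the group structure, and a flat gene finds near neighbours more readily than a variable one. The closeness of members to each other draws on values known when they were chosen. C130026I21Rik and A530040E14Rik also have 343 exon bases in common on opposite strands, with strand handling unknown.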

How the data were processed

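RNA of sorted splenic Tregs and Tconvs was sequenced in pairs of reads after Ovation SoLo library preparation. Per the study's methods and the submitters' processing notes, the authors trimmed reads with Trimmomatic 0.36, mapped them to mm10 with STAR 2.5.3 and counted them with HTSeq 0.9.1. The deposited values are a score: counts scaled by the authors to about 20 M per library (totals 19963628 to 20164600) and rounded to whole numbers, so no count test was the main one. Of 52636 rows, 4131 named only by a clone were left out. Genes at 60 or more in at least 2 libraries (12816) were tested on log2(value + 5) in one limma 3.58.1 trend model of 4 groups of 2 libraries (R 4.3.3), with Benjamini-Hochberg adjustment over all. A call needed an adjusted p under 0.05 and an absolute log2 difference over 1, and for the difference of responses the adjusted p alone. The authors' own test was DESeq2 on raw counts. The model was tested on simulated data. The groups of the table columns came from their headings, and libraries are numbered in table order.

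The members and gene lists were chosen with earlier results of these data known. Named genes were the members, tested genes within 500 kb, list genes with set examples, and the 3 tested genes nearest in profile to each member. Transcripts and positions came from GENCODE M21 (99.7% of gene identifiers matched) and promoters from RefSeq GRCm38.p6, where 5 of 5 members had one. Promoters were aligned with Biopython 1.88. Reads were estimated from the step between low values, and the floor was 3 reads. Alternatives were pseudocounts of 1 and 20, no filter, 2 other normalizations, fits on the compared groups alone, limma-voom on estimated reads, and leaving out each library. The list of interferon signal transduction genes is reported here in part.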

Additional observations from a re-analysis of the deposited data

Results flagged for a closer look

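Among 112 genes compared for a difference of the CD70Tg response between Tregs and Tconvs (members, neighbours, lists and nearest profiles), 2 passed an adjusted p under 0.05 and 0 of them were members of the locus. Gbp3, an interferon-gamma-induced guanylate-binding protein, read 480 and 486 in control and 1571 and 2256 in CD70Tg Tconvs, and 3994 and 3656 in control and 5590 and 6302 in CD70Tg Tregs. Its Treg response minus its Tconv response was -1.32 ± 0.21 on the log2 scale (limma adjusted p = 0.0044), and the call was lost in 1 of 14 alternatives, the fit with no minimum value. Lyz2, lysozyme of myeloid cells and here a marker of macrophages, read 788 and 835 in control and 436 and 643 in CD70Tg Tconvs, and 641 and 872 in control and 1181 and 1077 in CD70Tg Tregs. Its difference of responses was 1.2 ± 0.27 (adjusted p = 0.041), and the call was kept in 6 of 14 alternatives.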

How the results depend on the processing

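The count of members called between Tregs and Tconvs, and for the difference of responses, was 0 under every alternative run. Between CD70Tg and control Tregs it was 2, but 1 with no minimum value and 0 with limma-voom, and 2 without any library. In Tconvs it was 3, but 1 with no minimum value and 1 to 3 without a library, the lowest without the second CD70Tg library. The cause was not tested. Signs turned only for differences that were not called. With median-of-ratios factors Sp110 was -0.06 between control subsets and Sp100 0.02 for the difference of responses. With quantile normalization Sp110 was -0.03 and A530040E14Rik -0.30 between control subsets, C130026I21Rik -0.01 and A530040E14Rik -0.04 between CD70Tg subsets, Sp100 0.02 between CD70Tg and control Tconvs, and A530040E14Rik 0.26 for the difference of responses. With limma-voom C130026I21Rik was 0.06 between control subsets, -0.02 between CD70Tg subsets and -0.08 for the difference of responses, and A530040E14Rik was -0.08 between CD70Tg subsets. Leaving out a library gave ranges between control subsets of -0.05 to 0.08 (Sp110), -0.13 to 0.12 (C130026I21Rik) and -0.12 to 0.38 (A530040E14Rik), and between CD70Tg subsets of -0.36 to 0.28 (Sp140), -0.24 to 0.49 (C130026I21Rik) and -0.37 to 0.42 (A530040E14Rik). It gave -0.02 to 0.04 for Sp110 in Tregs, and -0.23 to 0.49 (C130026I21Rik) and -0.50 to 0.29 (A530040E14Rik) for the difference of responses. A group left with a single library was assumed to vary like the others. Genes called over the whole table numbered 462 in Tregs and 596 in Tconvs, against 173 and 842 with limma-voom and 202 and 283 with no minimum value. For the difference of responses it was 131, against 61 and 0. Leaving out a library moved these counts by over 1.5 times in Tregs (226 without the first control library), in Tconvs (315 without the second CD70Tg library) and for the difference of responses (269 and 66 without the first and second CD70Tg Tconv library, 79 and 82 without the first and second control Treg library, 62 without the first CD70Tg Treg library). Between control Tregs and Tconvs 1887 genes were called higher and 568 lower, against 1238 and 891 with quantile normalization. Of the antiviral list, 0 genes were called higher in Tregs, against 1 with median-of-ratios factors and 2 with quantile normalization. No paired analysis was possible because the table columns carry running numbers and no replicate number, and columns were not matched to samples by their order, so the planned replicate block was not run.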
